A study of Homo sapiens with 12 samples.

Results

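The genes examined here encode the eukaryotic translation initiation factors and the proteins that regulate them. They were taken as all protein-coding genes of GENCODE release 44 on chromosomes 1 to 22 and X (hg38) whose symbol begins with EIF followed by a digit from 1 to 6, which gave 55 of 19970 protein-coding genes. By symbol, 15 were EIF2 genes, 14 were EIF3 genes, 16 were EIF4 genes and 10 were EIF1, EIF5 or EIF6 genes. A gene was said to have a peak when the summit of a peak lay within 1 kb of any of its annotated transcript starts. The study examined how heat shock transcription factor 1 (HSF1) acts on chromatin in hepatocellular carcinoma. The data used here came from Huh7 cells, a human hepatocellular carcinoma line, of WT genotype and with no treatment, so no heat shock had been given. CUT&Tag was done with 1 library for HSF1 and 1 for H3K27ac, without replicates, so no value below has a replicate check and no test between samples was possible. The method (cleavage under targets and tagmentation) brings a transposase to an antibody on chromatin, so that the DNA beside the bound protein is tagged for sequencing.

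Translation initiation places the initiator tRNA at the start codon of an mRNA. The eIF2 complex delivers that tRNA, eIF3 organizes the small ribosomal subunit, the eIF4 factors recognize the mRNA cap and unwind its leader, and eIF1, eIF5 and eIF5B control start codon selection and the joining of the large subunit. HSF1 is the main inducer of chaperone genes and recognizes the heat shock element, a repeat of inverted GAA units. The CCAAT box is a promoter element bound by the factor NF-Y, and acetylation of histone H3 at lysine 27 (H3K27ac) marks active promoters and enhancers.

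For HSF1, 2712212 of 3604911 sequenced tags were kept when duplicates were dropped (75.2%), and 7129 peaks lay on the chromosomes used. For H3K27ac, 896393 of 15737890 tags were kept (5.70%), with 1291 peaks. The pileup of a peak is the number of tags, each extended to 200 bp, that cover its summit, and the fold enrichment sets that number against the local background, with 1 added to each. As a check of the HSF1 label, 6 of 12 known heat shock genes had an HSF1 peak (95% Wilson interval 25.4% to 74.6%), against 25.5% of all protein-coding genes, so the count alone does not set them apart. Of the 6, HSPD1 and HSPE1 share 1 peak. Their shared promoter reached a pileup of 52 and HSPA8 reached 37, while HSPA1A, HSPA1B, HSP90AB1, HSPB1, BAG3 and CHORDC1 had no peak. As a check of the cell type, 3 of 12 hepatocyte marker genes had an HSF1 peak (APOA2, APOB and HNF4A), against 25.5% of all protein-coding genes. An H3K27ac peak was at 0 of 12 (0% to 24.2%), ALB and AFP included, against 3.32% of all protein-coding genes. Neither count sets these markers apart. HSF1 peaks were found at 0 of 3 leukocyte, 0 of 3 endothelial and 1 of 3 fibroblast markers (COL1A1, pileup 11). The hepatocyte identity of the line could therefore not be read from these peak lists.

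To learn how often HSF1 sat at the starts of initiation factor genes in unstressed cells, the genes with a peak were counted. Of the 55 EIF genes, 31 had an HSF1 peak (56.4%, 95% Wilson interval 43.3% to 68.6%), against 25.5% of all protein-coding genes (5095 of 19970). Among the EIF2 genes 10 of 15 had a peak (66.7%, 41.7% to 84.8%), which fell to 6 of 15 (40%, 19.8% to 64.3%) when summits nearer to a start of another coding gene were left out, against 21.2% of all genes under that rule. Among the EIF3 genes 7 of 14 did (50%, 26.8% to 73.2%), and among the EIF4 genes 7 of 16 did (43.8%, 23.1% to 66.8%). Of the EIF1, EIF5 and EIF6 genes 7 of 10 had one (70.0%, 39.7% to 89.2%). The intervals of all 4 groups overlapped each other, and that of the EIF4 genes reached below the share over all genes. When summits nearer to another coding gene were left out, 5 of 14 EIF3 genes had a peak (35.7%, 16.3% to 61.2%). Under that rule the intervals of the EIF2 and EIF3 genes reached below the 21.2% of all genes. Those of the EIF4 genes and of the EIF1, EIF5 and EIF6 genes did not. The intervals cover counting error over genes only.

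**Figure D1:**
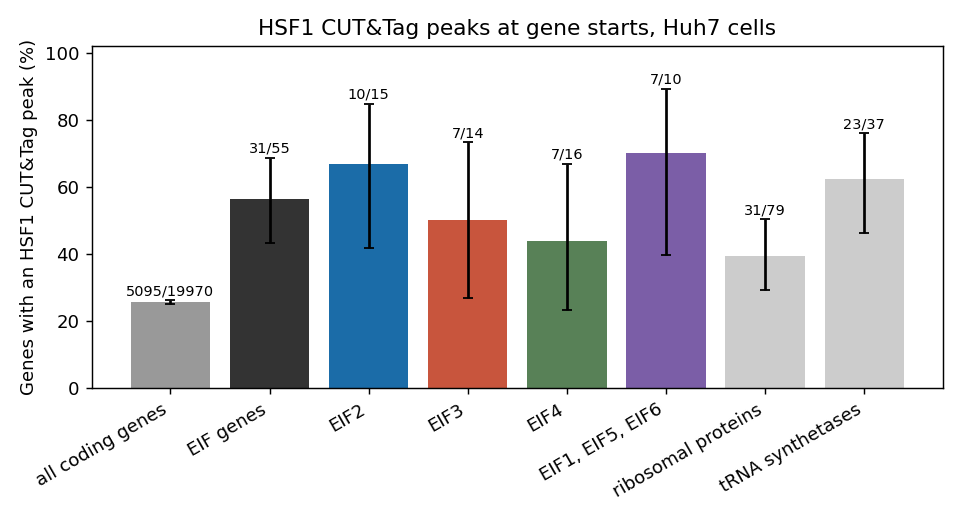
Share of genes (%, vertical axis from 0) with an HSF1 CUT&Tag summit within 1 kb of a transcript start in untreated Huh7 cells, for all coding genes, the EIF genes, their 4 groups and 2 other translation lists. Numbers above the bars are genes with a peak over all genes and lines are 95% Wilson intervals; the EIF bar (31/55) stands above that of all coding genes (5095/19970).

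By role, the eIF2 subunits and regulators formed sets of 2 to 5 genes, too small to compare with the 25.5% of all protein-coding genes. The genes for the alpha, beta and gamma subunits of eIF2 (EIF2S1, EIF2S2 and EIF2S3) all had a peak. EIF2S3B, a near copy of EIF2S3, did not. The EIF2S1 summit lay nearer to the start of a neighbour (ATP6V1D), so EIF2S1 had no peak when such summits were left out. Of the 5 subunits of eIF2B, the factor that recharges eIF2 with GTP, EIF2B1 and EIF2B4 of the regulatory part had a peak and EIF2B2 did not, and the catalytic subunits EIF2B3 and EIF2B5 had none. Both eIF2B summits lay nearer to the start of a neighbour (GTF2H3 and SNX17), so that 0 of 5 eIF2B genes had a peak when such summits were left out. Under that rule 21.2% of all genes had a peak, and 5 genes are too few to set against that share. Among the 4 kinases that phosphorylate eIF2 under stress, the heme-sensing EIF2AK1, the endoplasmic reticulum kinase EIF2AK3 and the amino acid sensor EIF2AK4 had a peak. EIF2AK2, which senses double-stranded RNA, had none. The EIF2AK4 peak lay 68295 bp from the main (canonical) start and was counted through an alternative start. EIF2AK4 therefore had no peak with canonical starts alone. EIF2A and EIF2D, which can also bring tRNA to the ribosome, both had a peak. The EIF2A summit lay nearer to the start of a neighbour (SERP1), so EIF2A too had none when such summits were left out.

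Among the eIF3 genes, 4 of the 8 that encode the octamer core had a peak (EIF3A, EIF3C, EIF3E and EIF3K), and EIF3F, EIF3H, EIF3L and EIF3M had none. EIF3CL, a copy of EIF3C, had none either, and whether reads of these copies could be told apart was not tested. Of the b, g and i module only EIF3B had one, and EIF3G and EIF3I did not. The EIF3B and EIF3E summits lay nearer to the start of a neighbour (SNX8 and EMC2). Neither gene had a peak when such summits were left out. The more loosely attached subunits EIF3D and EIF3J both had a peak. For EIF3C and EIF3E the peak lay far from the main (canonical) start, by 22840 and 194875 bp, and was counted through an alternative transcript start. At canonical starts the octamer had 2 of 8 with a peak and all eIF3 genes 5 of 14 (35.7%), against 22.9% of all protein-coding genes under that rule, so the octamer count was near the share over all genes.

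Of the 16 eIF4 genes 7 had a peak (43.8%, 23.1% to 66.8%), against 25.5% of all protein-coding genes. Each role held 3 to 5 genes, some with a peak and some without, and no difference between roles was tested. The helicase gene EIF4A1, the exon junction helicase gene EIF4A3 and the helicase cofactor gene EIF4B had a peak, and EIF4A2 and EIF4H did not. Of the 4 cap-binding protein genes only EIF4E2, which encodes a repressor of translation, had a peak, and EIF4E, the main cap-binding protein, EIF4E1B and EIF4E3 did not. Of the genes for proteins that bind eIF4E, EIF4EBP1 and EIF4EBP3 had a peak and EIF4EBP2 and EIF4ENIF1 did not. Of the scaffold genes, EIF4G2, whose product works without eIF4E, had a peak and EIF4G1 and EIF4G3 did not.

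In the remaining group, EIF1, EIF1AX and EIF1B, whose products help to scan for the start codon, had a peak and EIF1AD did not. EIF5, the GTPase activator of eIF2, EIF5B, which joins the large subunit, and EIF5A and EIF5A2, whose products carry hypusine and act mainly in elongation and termination, had a peak. EIF5AL1, a copy of EIF5A, and EIF6, whose product keeps the large subunit apart, had none.

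The rule allowed every annotated transcript start, and the EIF genes had a median of 9 distinct starts against 5 over all protein-coding genes. A gene with more starts had more chances to be counted, so the shares were also read by number of starts. With 1 start 2 of 5 EIF genes had a peak (8.72% of all genes), with 2 to 3 starts 3 of 4 (16.4%), and with 4 to 6 starts 7 of 7 (25.6%). With 7 to 12 starts 11 of 23 had one (47.8% against 33.2%), and with 13 or more 8 of 16 (50% against 40.3%). As counted, the share of EIF genes was thus above that of all genes in each class, by the least where starts were most numerous. The 2 classes with the most starts held 23 and 16 of the 55 EIF genes. No interval was computed for the EIF counts by class, so whether a difference within a class exceeds counting error was not tested. With canonical starts alone 28 of 55 EIF genes had a peak (50.9%), against 22.9% of all genes, and the 3 that dropped out were EIF2AK4, EIF3C and EIF3E. Median promoter GC content was 65.7% in both sets. By quintile of promoter GC content, from lowest to highest, 2 of 5, 4 of 10, 17 of 24, 5 of 11 and 3 of 5 EIF genes had a peak. The shares of all genes in these quintiles were 7.08%, 27.3%, 35.4%, 36.1% and 21.9%. As counted, the EIF share was above that of all genes in each, with the smallest difference in the fourth (45.5%). The middle quintile held 24 of the 55 EIF genes (70.8% with a peak). No interval was computed for the EIF counts by quintile, so these differences were not tested against counting error.

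Pileups at the 31 genes ranged from 8 to 24 with a median of 14 (95% interval of the median 12 to 16). The median over all protein-coding genes with a peak was also 14, with a range of 4 to 81, and the quartiles of the other 5064 genes were 11 and 19. Fold enrichment had a median of 7.03 at EIF genes (6.63 to 8.05, range 5.67 to 10.9) and 7.28 over all genes with a peak. EIF genes were thus counted more often than other genes, while their peaks had the height of a typical promoter peak. By group the median pileup was 13 for EIF2, 16 for EIF3, 15 for EIF4 and 15 for the EIF1 and EIF5 genes. With tag counts this low the order within the set was not resolved: the lower end of the interval at the highest gene (15.4) was below the upper end at the lowest gene (15.8, exact Poisson 95% intervals).

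**Figure D2:**
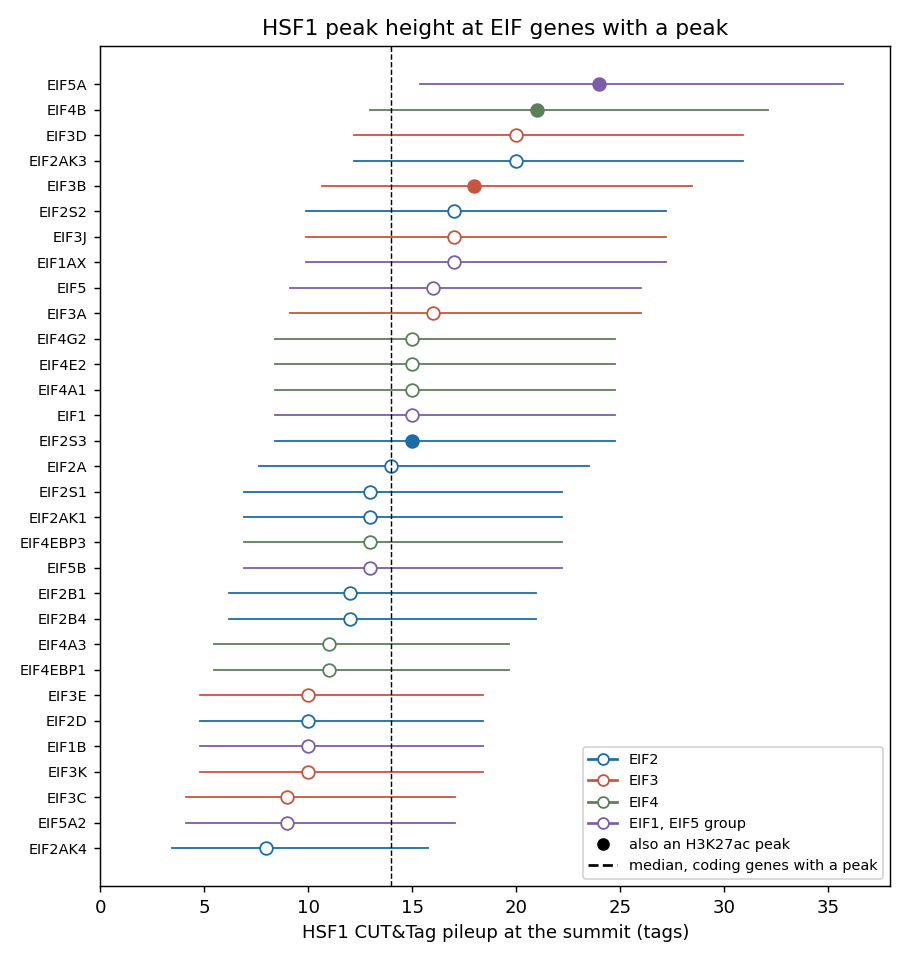
HSF1 pileup at the summit (tags, horizontal axis from 0) for the 31 EIF genes with a peak, coloured by group, with exact Poisson 95% intervals. Filled circles have an H3K27ac peak as well (EIF5A, EIF4B, EIF3B and EIF2S3), and the dashed line is the median of 14 over all coding genes with a peak; all 31 intervals overlap.

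The highest pileup was at EIF5A, where the peak at chr17:7307064-7307667 reached 24 tags (95% Poisson interval 15.4 to 35.7) at a fold enrichment of 10.0. Its summit lay in an EIF5A exon, 83 bp inside an annotated start. EIF4B followed with 21 tags (13 to 32.1) and a fold enrichment of 9.65 at chr12:53006051-53006491, in its own exon. EIF3D had 20 tags (12.2 to 30.9) at chr22:36529045-36529494, 104 bp upstream of a start. Its fold enrichment of 10.9 was the highest of the set and exceeded that of 95.1% of the HSF1 list. EIF2AK3 also had 20 tags at chr2:88627374-88627976, with a fold enrichment of 9.91. A second EIF2AK3 peak, with 12 tags, lay 15 bp from an alternative start.

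Below these, EIF3B had 18 tags (10.7 to 28.4, fold enrichment 6.93) at chr7:2354260-2354878 in an EIF3B intron. EIF2S2 had 17 tags (fold enrichment 8.91) at chr20:34112058-34112389, in an exon at its single annotated start. EIF3J had 17 tags (7.69) at chr15:44536557-44537003, with the summit 420 bp upstream in an exon of the divergent transcript gene EIF3J-DT. EIF1AX had 17 tags (7.03) at chrX:20141646-20142201, outside annotated exons. EIF5 had 16 tags (8.67) at chr14:103333876-103334282 in an EIF5 intron. EIF3A had 16 tags (7.33) at chr10:119080776-119081251, in an exon of the unnamed gene ENSG00000289126. Of these 10 genes 4 encode eIF3 subunits (EIF3D, EIF3B, EIF3J and EIF3A), in an order that the intervals do not resolve.

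EIF4G2 had 15 tags (fold enrichment 8.70) at chr11:10808841-10809283, and EIF1 had 15 (6.67) at chr17:41688678-41688988, both outside annotated exons. EIF2S3 had 15 (6.30) at chrX:24054320-24054809, 305 bp upstream of a start. EIF4EBP1 had 11 (6.12) at chr8:38030412-38030827, with the summit in its own intron. Pileups of 15 were also seen at EIF4E2 and EIF4A1, 14 at EIF2A, and 13 at EIF2S1, EIF2AK1, EIF4EBP3 and EIF5B. EIF2B1 and EIF2B4 had 12 tags, EIF4A3 had 11, and EIF3E, EIF2D, EIF1B and EIF3K had 10. The lowest were EIF3C and EIF5A2 with 9 and EIF2AK4 with 8 (3.45 to 15.8), whose peak lay 68295 bp into the gene at an alternative start. In all, 4 of the 31 genes had 20 tags or more and 3 had fewer than 10. EIF3K had the lowest fold enrichment, 5.67.

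The positions of the summits were those of promoter peaks in general. The median summit lay 65 bp upstream of the nearest start (57 bp over all genes with a peak), 23 of 31 were within 200 bp (74.2% against 74.6%), and 23 lay upstream (74.2% against 74.7%). The farthest was the higher of the EIF5B peaks (13 tags, fold enrichment 6.31), 964 bp upstream of EIF5B and 22 bp from a start of TXNDC9, while its second peak, with 12 tags, lay 47 bp from the EIF5B start. The next farthest were EIF3J (420 bp) and EIF2S1 (339 bp). Beyond the limit, the nearest were EIF4E1B, with a summit of 28 tags 2741 bp away, and EIF3L, with 15 tags 4485 bp away. The other 22 genes without a peak had none within 14 kb, and the median distance of the 24 was 66482 bp. The limit of 1 kb therefore fell in a wide gap, and limits of 500 bp or 2 kb gave the same 31 of 55.

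**Figure D3:**
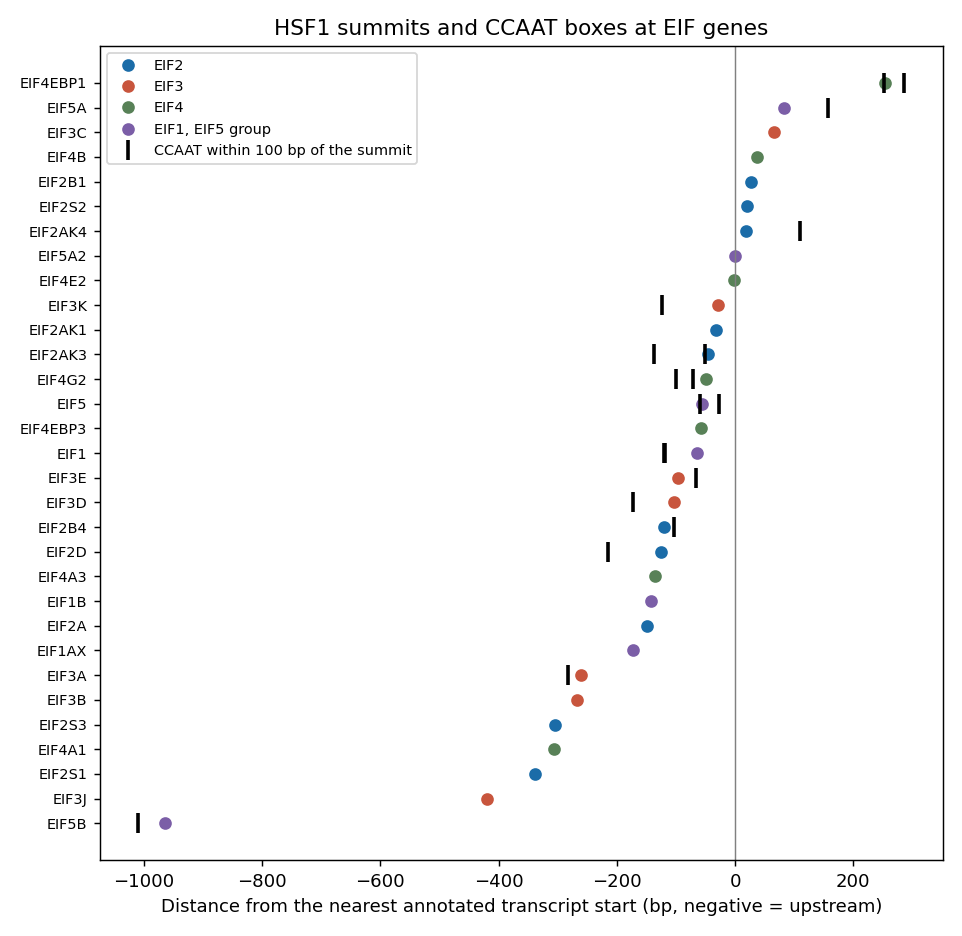
Position of the HSF1 summit (circle, coloured by group) and of CCAAT boxes within 100 bp of it (black ticks) for the 31 EIF genes with a peak, as distance in bp from the nearest annotated transcript start (0, grey line; negative is upstream). Most circles lie between 200 bp upstream and 100 bp downstream; EIF5B is at 964 bp upstream, and 14 genes have a tick.

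Several of these starts are shared with another gene. For 10 of the 31 genes the summit was within 1 kb of a start of another protein-coding gene, and for 7 it was nearer to that gene. These were EIF2A (28 bp from SERP1), EIF2B1 (0 bp from GTF2H3), EIF2B4 (38 bp from SNX17), EIF2S1 (157 bp from ATP6V1D), EIF3B (241 bp from SNX8), EIF3E (9 bp from EMC2) and EIF5B. For EIF3K, EIF4E2 and EIF5 the summit was nearer to their own start. When a summit had to be at least as near to a start of the EIF gene as to any other coding gene, 25 of 55 EIF genes had a peak (45.5%), against 21.2% of all genes under the same rule. Which gene of a shared promoter a peak serves cannot be told from a peak list.

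CCAAT, read on both strands, was found from 150 bp upstream to 50 bp downstream of the canonical start of 18 of 55 EIF genes (32.7%, 95% Wilson interval 21.8% to 45.9%), against 28.5% of all protein-coding genes. When the windows of every annotated start were searched, as for the peaks, 37 of 55 had it (67.3%), against 59.5% of all genes. Of the EIF2 genes 6 of 15 had it, of EIF3 5 of 14, of EIF4 3 of 16, and of the EIF1, EIF5 and EIF6 genes 4 of 10. EIF genes with a promoter CCAAT had an HSF1 peak in 11 of 18 cases (61.1%, 38.6% to 79.7%) and those without it in 20 of 37 (54.1%, 38.4% to 69.0%), and these intervals overlapped. Over all genes the shares were 32.9% and 22.6%. Within 100 bp of the summit, 14 of 31 EIF genes had a CCAAT (45.2%, 29.2% to 62.2%), against 36.5% of all genes with a peak, and 17 had none.

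At 5 of 31 genes (16.1%, 7.09% to 32.6%) there were 2 CCAAT matches within 100 bp of the summit, against 15.1% of all genes with a peak. These were EIF5, EIF4G2, EIF2AK3, EIF1 and EIF4EBP1. In EIF5, EIF4G2 and EIF4EBP1 the boxes were 32, 29 and 34 bp apart in the same orientation, and in EIF2AK3 86 bp apart in opposite orientation. In EIF1 they were the overlapping arms of 1 palindrome, CCAATTGG. The exon-free parts of the summit windows of the first 4 are shown, with those of EIF3D and EIF5A, which had 1 box and the highest fold enrichment and pileup, and of EIF4B, which had a high pileup and no box. All are from hg38, read 5′ to 3′ on the strand of the gene, with CCAAT or its reverse complement ATTGG in capitals.
EIF5, chr14:103334033-103334188, plus strand: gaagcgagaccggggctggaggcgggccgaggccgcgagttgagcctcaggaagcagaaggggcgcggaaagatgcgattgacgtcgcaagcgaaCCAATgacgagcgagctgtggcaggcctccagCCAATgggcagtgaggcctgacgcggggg
EIF4G2, chr11:10808941-10809090, minus strand: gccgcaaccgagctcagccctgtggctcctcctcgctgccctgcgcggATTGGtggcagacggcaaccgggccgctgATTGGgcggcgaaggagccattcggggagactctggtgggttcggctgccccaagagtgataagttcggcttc
EIF1, chr17:41688720-41688884, plus strand: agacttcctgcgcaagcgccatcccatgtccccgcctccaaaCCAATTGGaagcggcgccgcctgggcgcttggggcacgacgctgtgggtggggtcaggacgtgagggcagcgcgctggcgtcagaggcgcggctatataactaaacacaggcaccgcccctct
EIF2AK3, chr2:88627465-88627538, minus strand (the other box lies in an exon): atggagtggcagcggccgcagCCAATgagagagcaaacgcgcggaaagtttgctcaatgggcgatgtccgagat
EIF3D, chr22:36529188-36529388, minus strand: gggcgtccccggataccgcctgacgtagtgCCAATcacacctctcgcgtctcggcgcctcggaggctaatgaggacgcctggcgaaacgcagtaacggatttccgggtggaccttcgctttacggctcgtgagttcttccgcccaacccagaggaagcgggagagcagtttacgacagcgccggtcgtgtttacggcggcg
EIF5A, chr17:7307410-7307509, plus strand (from the summit on): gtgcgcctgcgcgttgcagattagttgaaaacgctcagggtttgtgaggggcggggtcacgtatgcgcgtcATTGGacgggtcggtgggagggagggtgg
EIF4B, chr12:53006219-53006281, plus strand (the summit lies in the exon that follows): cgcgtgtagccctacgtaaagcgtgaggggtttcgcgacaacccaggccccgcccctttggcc

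In the EIF5 run the middle base of the first box was 3 bp before the summit and that of the second 29 bp after it, and in EIF2AK3 the box shown was centred 6 bp before it. In EIF4G2 the boxes were centred 50 and 21 bp upstream of the summit. EIF3D had its box 68 bp and EIF5A 74 bp from the summit, so a box in the window was not always under the summit. Within 50 bp, 8 of 31 EIF genes had a CCAAT (25.8%), against 25.4% of all genes with a peak. The other genes with 1 box in the window were EIF2AK4, EIF2B4, EIF2D, EIF3A, EIF3E, EIF3K and EIF5B.

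The heat shock element itself was rare. Searched on both strands as 3 alternately inverted GAA units with 2 free bases between neighbours, with at most 1 mismatch in the 9 fixed bases, it was found in 1 of 55 EIF promoters, against 2.73% of all promoters. The match was in EIF5, 11 bp from the canonical start in an exon, and read GAACATTCCAGAG. At the summits it was found in 1 of 31 genes, EIF2S3, against 2.39% of all genes with a peak. No match says only that these letters are not in the window.

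Other promoter motifs were counted in the same window, and no difference between EIF groups was tested. The E-box CACGTG, which MYC family proteins recognize, was in 10 of 55 EIF promoters (18.2%, 10.2% to 30.3%), against 6.68% of all promoters. It was in 6 of 16 EIF4 promoters (EIF4A3, EIF4B, EIF4E, EIF4EBP1, EIF4EBP3 and EIF4G1), 3 of 14 EIF3 promoters (EIF3A, EIF3F and EIF3K), EIF1B and 0 of 15 EIF2 promoters. The intervals of the EIF4 (18.5% to 61.4%), EIF3 (7.57% to 47.6%) and EIF2 promoters (0% to 20.4%) overlapped. Of these 10 genes 7 had an HSF1 peak (70.0%, 39.7% to 89.2%), and of the 45 without the E-box 24 did (53.3%, 39.1% to 67.1%), with overlapping intervals. Over all protein-coding genes the shares were 30.4% and 25.2%. At the summits, 6 of 31 genes had an E-box (19.4%), against 7.24% of all genes with a peak. CCGGAAG, a sequence of the ETS factor type, was in 16 of 55 promoters (29.1%, 18.8% to 42.1%), against 12.1%, and 7 of these were EIF3 promoters (50%, 26.8% to 73.2%), whose interval overlapped that of the EIF4 promoters (2 of 16, 3.50% to 36.0%). GGGCGG, of the SP1 type, was in 37 of 55 (67.3% against 55.7%). The palindrome of the NRF1 type, with at most 1 mismatch, was in 11 of 55 (20% against 9.21%). Within 100 bp of the summits these last 3 motifs were in 4 of 31 genes (12.9% against 14.9% of all genes with a peak), 22 of 31 (71.0% against 66.5%) and 5 of 31 (16.1% against 12.3%).

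The sequences upstream of 4 promoters show these motifs with and without a peak. EIF4E holds an E-box and a CCAAT box and EIF3M a CCGGAAG and a CCAAT box, and neither had an HSF1 peak, while EIF4A3 and EIF3A hold an E-box and had one. The summits at EIF4A3 and EIF3A both lay upstream of the stretches shown. An E-box was within 100 bp of the EIF4A3 summit. The EIF3A summit, 261 bp upstream of its start, had no E-box within 100 bp and a CCAAT centred 22 bp away. They are from hg38, exon-free and on the strand of the gene, with the E-box, CCAAT box and ETS-type matches in capitals.
EIF4E, chr4:98929134-98929283, minus strand, no peak: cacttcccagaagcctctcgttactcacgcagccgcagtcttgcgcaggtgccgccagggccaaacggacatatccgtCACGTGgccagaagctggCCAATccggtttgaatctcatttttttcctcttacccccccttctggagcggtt
EIF3M, chr11:32583681-32583797, plus strand, no peak: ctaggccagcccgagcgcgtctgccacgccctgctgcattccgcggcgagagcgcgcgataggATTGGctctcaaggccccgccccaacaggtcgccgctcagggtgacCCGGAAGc
EIF4A3, chr17:80147152-80147249, minus strand, with a peak: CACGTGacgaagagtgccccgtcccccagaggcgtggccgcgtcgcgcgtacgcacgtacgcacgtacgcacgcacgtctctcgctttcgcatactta
EIF3A, chr10:119080818-119080928, minus strand, with a peak: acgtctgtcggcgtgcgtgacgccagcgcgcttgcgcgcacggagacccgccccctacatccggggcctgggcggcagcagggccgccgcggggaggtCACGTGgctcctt

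For the CCGGAAG promoters, the split by HSF1 peak was chosen for mention after its values were seen. EIF genes with the motif had an HSF1 peak in 5 of 16 cases (31.3%, 14.2% to 55.6%) and those without it in 26 of 39 (66.7%, 51.0% to 79.4%), and the intervals overlapped. Over all protein-coding genes the order was the opposite, 38% with the motif and 23.8% without. EIF genes with GGGCGG had a peak in 24 of 37 cases (64.9%, 48.8% to 78.2%) and those without it in 7 of 18 (38.9%, 20.3% to 61.4%). For the NRF1 type it was 8 of 11 (72.7%, 43.4% to 90.3%) and 23 of 44 (52.3%, 37.9% to 66.2%). These intervals overlapped too, and all genes had the same order for both motifs. Within EIF3, 1 of 7 genes with CCGGAAG had a peak (EIF3C, 2.57% to 51.3%) and 6 of 7 without it did (48.7% to 97.4%), with overlapping intervals. EIF3C in the first set and EIF3E in the second were counted through distant starts, while the motif was read at the canonical start. EIF3C and EIF3CL have identical sequence over the 201 bases searched, so their motif matches are not independent. EIF2S3 and EIF2S3B share 187 of 201 bases. The summits at EIF3C and EIF2S3 lie outside these windows, and the sequence there was not compared with that of the copies. Whether reads could be told apart between the copies was not tested, so EIF3CL and EIF2S3B are genes where no peak was called.

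Last, the genes were compared for H3K27ac in the same untreated cells. An H3K27ac peak was found at 4 of 55 EIF genes (7.27%, 2.86% to 17.3%), against 3.32% of all protein-coding genes. With a −log10 q-value of at least 5 only EIF3B was left (1.82%, against 1.28% of all genes), and EIF2S3, EIF5A and EIF4B were not. All 4 also had an HSF1 peak, which made 4 of 31 (12.9%, 5.13% to 28.9%), against 10.1% of all genes with an HSF1 peak. Of the 24 EIF genes without an HSF1 peak 0 had one, which allows a share of up to 13.8% (Wilson), against 1.00% of such genes overall. Only 5.70% of the tags of this library were left after duplicate removal and the lowest H3K27ac peak in the list had a pileup of 3, so a gene without a peak is one where none was called at this depth.

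EIF3B had the highest H3K27ac pileup of the set, 22 tags (95% Poisson interval 13.8 to 33.3) at a fold enrichment of 8.71, with the summit 25 bp from the HSF1 summit. EIF2S3 had 10 tags (4.80 to 18.4, fold enrichment 6.11) at 162 bp from the HSF1 summit. EIF5A had 9 tags (4.12 to 17.1, fold enrichment 6.49) at 176 bp. EIF4B had 8 tags (3.45 to 15.8, fold enrichment 5.36) at 386 bp. EIF5A, EIF4B and EIF3B were among the 5 highest HSF1 pileups of the EIF genes, and EIF2S3 was near their median. Each of the 4 symbol groups had 1 of these genes.

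The EIF genes were set beside the other parts of the translation apparatus. Of 79 cytosolic ribosomal protein genes 31 had an HSF1 peak (39.2%, 29.2% to 50.3%), against 25.5% of all protein-coding genes. Their median pileup was 13. Of 37 aminoacyl-tRNA synthetase genes, which charge tRNAs, 23 had one (62.2%, 46.1% to 75.9%), also with a median of 13. The interval of the EIF genes overlapped both. The median number of annotated starts was 8 for the ribosomal protein genes, 12 for the synthetase genes and 9 for the EIF genes, against 5 over all genes. Shares of the compared lists at canonical starts alone were not computed. A CCAAT lay within 100 bp of the summit in 7 of 31 ribosomal protein genes (22.6%) and 13 of 23 synthetase genes (56.5%). The EIF genes lay between them at 45.2%, and the share over all genes with a peak was 36.5%. H3K27ac peaks were at 9 ribosomal protein genes (11.4%) and 5 synthetase genes (13.5%), against 3.32% of all protein-coding genes.

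Of 33 further translation genes, 19 had an HSF1 peak (57.6%, 40.8% to 72.8%), against 25.5% of all protein-coding genes. An H3K27ac peak was found at 6 of the 33 (18.2%, 8.61% to 34.4%), against 3.32% of all protein-coding genes. For elongation 4 of 9 had an HSF1 peak (18.9% to 73.3%), led by EEF1A1, the tRNA carrier of elongation, with 33 tags. EEF2, the translocation factor, had none. For termination and recycling it was 2 of 4, led by the release factor gene ETF1 with 28 tags. Among helpers of initiation 7 of 13 had an HSF1 peak (29.1% to 76.8%). LARP1, which binds mRNAs with a terminal oligopyrimidine tract, reached 39 tags at a fold enrichment of 13, above every EIF gene, and BZW1, an eIF5 mimic, reached 27. Among signalling genes 6 of 7 had an HSF1 peak (48.7% to 97.4%). MKNK2 and MKNK1, the kinases of eIF4E, had 19 and 16 tags, and MTOR had 14. The eIF2 phosphatase subunit gene PPP1R15B had 16 tags, and its stress-induced relative PPP1R15A had no peak.

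Whether any of these peaks changes the expression of its gene was not tested, since peak lists hold no expression values. A CUT&Tag control without primary antibody, described in the methods of the study, was not analysed here, so the part that open promoter chromatin has in the peaks was not tested.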

How the data were processed

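Peak lists of 1 HSF1 and 1 H3K27ac CUT&Tag library from untreated Huh7 cells were analysed. The authors aligned the reads to hg38 and called peaks in each library by itself with MACS 2.1.4 (submitters' processing notes and file headers), with no control, a p-value cutoff of 1e-05, a shift of -100 bp, an extension of 200 bp and duplicates removed. Pileup was deposited as a signal, the unscaled number of extended tags at a summit. Fold enrichment was deposited as a ratio of pileup to local background. The deposited −log10 p-value comes from the Poisson model of the caller. The file headers say that q-values were not calculated, but a deposited −log10 q-value column holds values, used here only as a filter.

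Peaks on chromosomes 1 to 22 and X were assigned to GENCODE release 44 starts within 1 kb of the summit, and the highest pileup represented a gene. Motifs were searched in hg38 on both strands, from 150 bp upstream to 50 bp downstream of the Ensembl canonical start (201 bases) and within 100 bp of the summit. Shares have 95% Wilson intervals and pileups exact Poisson intervals, which cover counting error only. Medians have order-statistic intervals.

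Compared lists were cytosolic ribosomal protein genes, aminoacyl-tRNA synthetase genes, 33 other translation genes, heat shock genes and cell type markers. Genes given with full values were the 10 of highest pileup, those with an H3K27ac peak, those with 2 CCAAT matches at the summit and those nearest to the 1 kb limit, and every gene without a peak was named. The members and lists were chosen with earlier results of these data known. On simulated peaks, 200 of 200 planted genes and 200 of 200 planted boxes were recovered. The H3K27ac ChIP-seq lists, which are on hg19, the RNA-seq and the control without primary antibody were not used here. Alternatives were other distances, starts, filters, windows and gene sets. Sequences were read with pysam 0.24.0, tables with pandas 2.3.3 and numpy 2.4.6, intervals were computed with scipy 1.17.1, and figures were drawn with matplotlib 3.10.9 in Python 3.11.15.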

Additional observations from a re-analysis of the deposited data

How the results depend on the processing

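The share of EIF genes with an HSF1 peak ran from 45.5% (own start nearest, chosen after seeing the data) to 57.1% (without EIF3C, EIF3CL, EIF5A, EIF5AL1, EIF1AX and EIF4E1B, which have paralogs or copies, 28 of 49), against 56.4% as reported. Without the genes whose promoter windows are nearly identical (EIF3C, EIF3CL, EIF2S3 and EIF2S3B, also chosen after seeing the data) it was 56.9% (29 of 51). Of 96 alternative values for 10 results, 92 stayed within the 95% interval of the reported value, and 4 moved further. Staying within it is a weak check, since the intervals of groups of 10 to 16 genes are wide. The EIF3 share of 35.7%, against 50%, counted as staying. Limits of 500 bp or 2 kb left the count at 31 of 55. With the own start nearest, the share of EIF2 genes was 40% (6 of 15), against 66.7%, while EIF3 had 5 of 14, EIF4 7 of 16 and the others 7 of 10. With a −log10 q-value of at least 5, only EIF3B kept an H3K27ac peak, a share of 1.82% (1 of 55) against 1.28% of all genes. With any transcript start, 37 of 55 EIF genes (67.3%) had a promoter CCAAT, against 59.5% of all genes, and with 50 bp around the summit the CCAAT share was 25.8%. The cause was not tested beyond the wider or narrower search these settings make. No paired analysis was possible because there was 1 library per antibody, and for the same reason no replicate could be left out. Depth limits the height of single peaks, and H3K27ac peaks of 8 to 10 tags rest on few tags.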
